A study of Homo sapiens with 12 samples.

Results

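The 10 genes of the outer kinetochore network, KNL1, ZWINT, MIS12, DSN1, NSL1, PMF1, NDC80, NUF2, SPC24 and SPC25, were taken by symbol from the 14828 genes with an expression value. All 10 were found, and all 10 passed the filter that left 14624 genes for testing, a mean log2 RPKM of at least -3 over the libraries. RPKM scales reads by transcript length and sequencing depth, so levels of different genes can be set side by side. The cells were 22Rv1, a human prostate cancer epithelial line that grows in culture, carrying a doxycycline-inducible lentiviral hairpin. The hairpin was nontargeting (shNT) or 1 of 2 hairpins against CENPA, the centromeric histone H3 variant (shCENPA1 and shCENPA2). All 3 groups, the control included, carried the same pTRIPZ vector and received 2 µg/ml doxycycline for 72 h. Each group had 2 libraries of poly(A) RNA, each sequenced in 2 lanes, and the lanes were averaged because they are repeat runs of 1 library. The labels do not say whether the 2 libraries came from separate cultures, so p-values measure the spread between these libraries, which may be technical.

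Kinetochores join chromosomes to spindle microtubules. An inner layer sits on CENPA nucleosomes and holds the MIS12 complex, a hub that in turn binds KNL1 and the NDC80 complex, and these assemblies together are called the KMN network. NDC80 grips the microtubule, KNL1 is the platform on which the spindle checkpoint is built, and several of the genes are known to be transcribed mainly in dividing cells. The comparison asked how the transcripts of each of these assemblies stood when CENPA, the base on which they sit, was knocked down.

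The libraries held 79172294 to 133074655 reads on genes. CENPA itself, measured for shNT at 2.46 and 2.18 log2 RPKM, stood at 0.50 and 0.58 with shCENPA1 and at -0.47 and -0.41 with shCENPA2, a decrease of 70.9% and 85.3% of the control level (adjusted p = 0.000287 and 1.13e-05 from limma). All 9 prostate luminal markers were in the table, with HOXB13 at 221.0 to 336.0 RPKM. Lower levels were those of KLK3 (0.222 to 0.718 RPKM), KLK2 (0.586 to 1.54 RPKM) and TMPRSS2 (2.06 to 4.56 RPKM). Of 10 markers of other cell types 3 were in the table, with a summed level of 23.4 to 24.5 RPKM with shNT, 25.3 to 29.1 with shCENPA1 and 23.5 to 24.7 with shCENPA2, nearly all of it SYP, a synaptic vesicle gene (21.9 to 26.9 RPKM). The part of this list in the results was not tested.

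The genes lie apart in the genome, on 8 chromosomes (GRCh38, GENCODE). The KNL1 gene is at chr15:40594020-40664342 on the plus strand and ZWINT at chr10:56357227-56361273 on the minus strand. Of the MIS12 complex, MIS12 is at chr17:5486285-5490814 (plus), DSN1 at chr20:36751791-36773818 (minus), NSL1 at chr1:212726153-212791782 (minus) and PMF1 at chr1:156212993-156240042 (plus). Of the NDC80 complex, NDC80 is at chr18:2571557-2616635 (plus), NUF2 at chr1:163266576-163355764 (plus), SPC24 at chr19:11131520-11155807 (minus) and SPC25 at chr2:168834132-168913371 (minus).

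The promoters of these genes are shown as a description, and a link between their motifs and the changes in level was not tested. A promoter here is 250 bases before to 50 bases after a RefSeq start in GRCh38.p14, and 9 of the 10 genes, all but KNL1, had one in the table used, with 11 promoters in all. On both strands of each, 3 motifs known from cell cycle promoters were searched: TTTGAA, the core of the cell cycle homology region (CHR); TTTGGCGC, TTTCGCGC or TTTCCCGC, which resemble E2F sites; and CCAAT. No match of one motif overlapped a match of another in these promoters. A match is a description of the letters and not a binding site. TTTGAA was found in 4 of the 9 genes, NDC80, NUF2, SPC25 and ZWINT, against 13.5% of 10284 genes of the expression table with a promoter and 15.2% of all 35116 promoters. Its letters are in capitals in the following stretches of 30 bases. The motif begins 3 bases before the start in NDC80 and SPC25, 16 bases after it in NUF2 and 17 or 31 bases before it in ZWINT, which has 2 starts, and SPC25 holds a further match 247 bases before its start. The NUF2 match lies in the first exon. In NDC80 and ZWINT the motif is read on the other strand, as TTCAAA.
NDC80 (chr18:2571542-2571571, plus strand): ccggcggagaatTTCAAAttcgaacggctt
NUF2 (chr1:163321958-163321987, plus strand): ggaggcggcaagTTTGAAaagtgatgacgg
SPC25 (chr2:168890416-168890445, minus strand): aagtgcactaggTTTGAAatcggaaagttg
ZWINT (chr10:56361273-56361302, minus strand): gtcgactgtgacTTCAAAgtaatcttaggg

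SPC24, DSN1, MIS12, NSL1 and PMF1 had no TTTGAA in these windows. An E2F-like match was found in MIS12 alone of the 9, in both of its promoters, against 5.46% of the genes of the expression table. The stretch around one of them is given with the match in capitals.
MIS12 (chr17:5486254-5486283, plus strand): cccactttagtTTTCCCGCgactgcccaat

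CCAAT was found in 5 of the 9 genes, PMF1, SPC25, ZWINT, MIS12 and SPC24, against 43.3% of the genes of the expression table, and in neither NDC80, NUF2, NSL1 nor DSN1. The 150 bases before the start are given for SPC24 and ZWINT, which fell, and PMF1, which did not pass the test, with CCAAT, its other-strand form ATTGG and the TTTGAA match of ZWINT in capitals.
SPC24 (chr19:11155783-11155932, minus strand): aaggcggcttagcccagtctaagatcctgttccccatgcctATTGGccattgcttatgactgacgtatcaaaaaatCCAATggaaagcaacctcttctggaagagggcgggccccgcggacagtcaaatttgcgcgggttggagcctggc
ZWINT (chr10:56361260-56361409, minus strand): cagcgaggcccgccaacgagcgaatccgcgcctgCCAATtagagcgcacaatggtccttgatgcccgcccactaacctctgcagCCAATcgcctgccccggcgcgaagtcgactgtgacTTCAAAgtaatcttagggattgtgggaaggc
PMF1 (chr1:156212857-156213006, plus strand): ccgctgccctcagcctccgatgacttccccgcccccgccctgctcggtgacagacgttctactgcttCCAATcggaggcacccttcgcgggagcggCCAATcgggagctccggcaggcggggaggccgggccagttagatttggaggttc

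In the control cells ZWINT was the most abundant of the 10 transcripts, with a mean of 52.8 RPKM, and SPC25 the least, with 2.4 RPKM. Between them stood NSL1 at 16.0, DSN1 at 14.4, NUF2 at 14.1, MIS12 at 13.9, NDC80 at 12.5, PMF1 at 9.99, KNL1 at 5.81 and SPC24 at 4.86 RPKM. The library values of DSN1, NUF2 and MIS12 overlapped from each to the next in this order, while the other neighbours stood apart in both shNT libraries. The position of a gene in this order went across the assemblies, so that NDC80 and NUF2, which pair along the rod of the NDC80 complex, lay among the MIS12 complex genes, and SPC24 and SPC25, the pair at the other end of the rod, lay lowest. The 4 NDC80 complex genes spanned 2.56 on the log2 RPKM scale, a 5.89-fold range, and the 4 MIS12 complex genes 0.68, a 1.6-fold range. Values of the 2 lanes of a library differed by at most 0.23 on the log2 scale, in SPC25, which rests on 127 to 527 reads a library. Reads for the other 9 genes were 725 to 13661 a library.

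**Figure D1:**
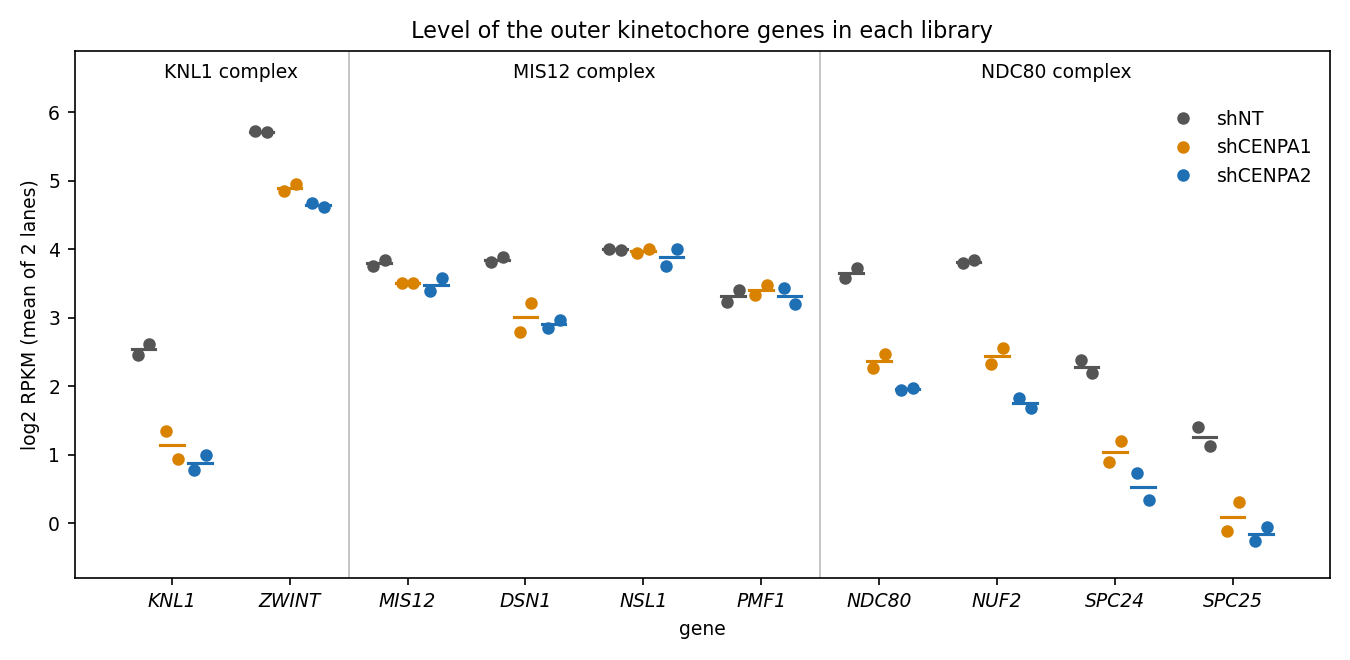
Level of each gene in each of the 6 libraries, as log2 RPKM on the vertical axis and the genes by assembly on the horizontal axis. Points are libraries (mean of 2 lanes) and short lines are group means. The 4 NDC80 complex genes and KNL1 lie lower in each shCENPA library than in both shNT libraries, while the points of NSL1 and PMF1 overlap between all groups.

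Against shNT, 5 of the 10 genes were called lower with shCENPA1 (KNL1, NDC80, NUF2, SPC24 and SPC25) and 6 with shCENPA2 (KNL1, ZWINT, NDC80, NUF2, SPC24 and SPC25), a call being a log2 fold change beyond 1 with an adjusted p under 0.05 from limma over all genes tested. Of all 14624 genes tested, 1.83% were called lower with shCENPA1 and 4.45% with shCENPA2. At an adjusted p under 0.05 and any size of change, 7 genes were lower with shCENPA1 (those 5 with ZWINT and DSN1) and 7 with shCENPA2 (those 6 with DSN1), where 4.45% and 10.5% of all genes were lower. None of the 10 was higher by either rule, by limma, by limma-voom on recovered reads or at an unadjusted p under 0.05, where 0.821% and 1.68% of all genes were called higher and 2.69% and 8.05% were higher at any size of change. For shCENPA1 and shCENPA2 in turn, the median log2 fold change of the 10 genes stood at -1.0 and -1.25, and over all genes tested it was 0.00 and 0.01. The control libraries are shared by these comparisons, which are therefore not independent of each other. In bulk RNA, fewer cells that express a gene and less RNA in each cell cannot be told apart.

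**Figure D2:**
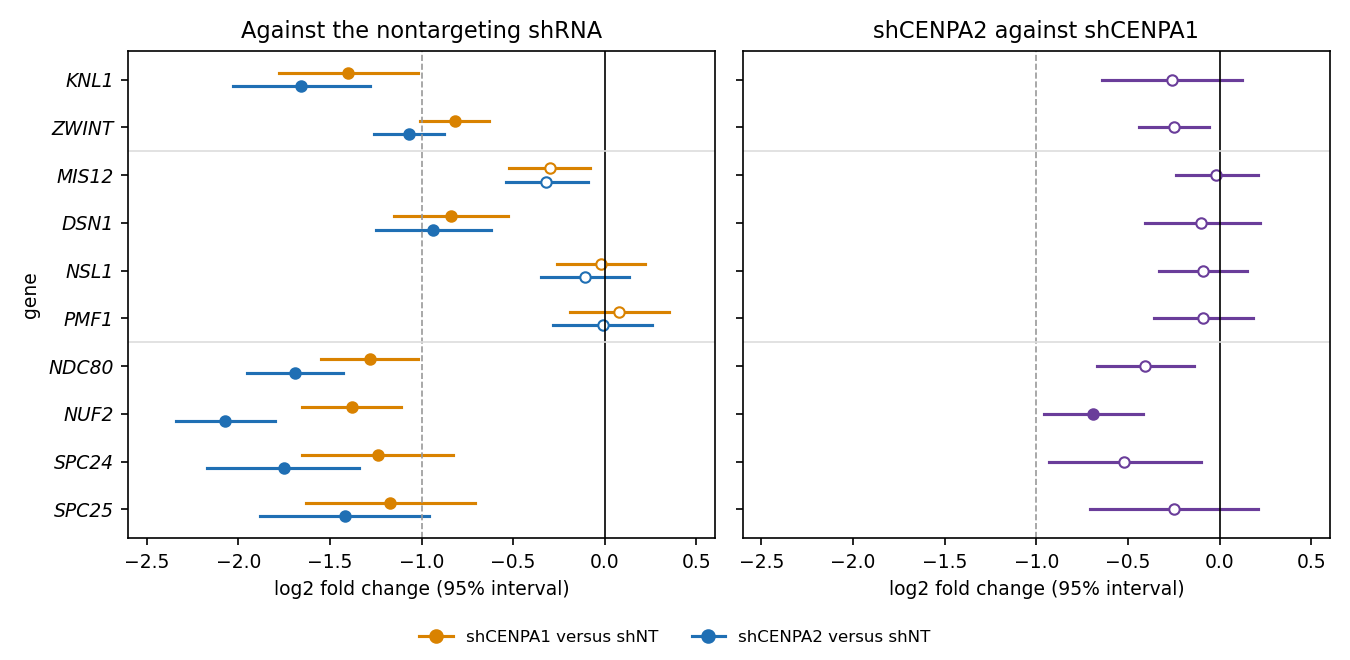
Log2 fold change of each gene against shNT (left, shCENPA1 and shCENPA2) and of shCENPA2 against shCENPA1 (right), with the 95% interval from limma; filled points have an adjusted p under 0.05 and the dashed line marks a log2 fold change of -1. KNL1 and the 4 NDC80 complex genes lie furthest from 0, NSL1 and PMF1 at 0, and NUF2 is the filled point on the right.

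All 4 genes of the microtubule-binding NDC80 complex fell with each hairpin. NUF2, which forms the microtubule-facing head with NDC80, measured 3.80 and 3.84 log2 RPKM with shNT, 2.32 and 2.56 with shCENPA1, and 1.82 and 1.68 with shCENPA2. The 3 groups did not overlap, and shCENPA2 was lowest. The change was -1.38 ± 0.12 (SE) with shCENPA1 and -2.07 ± 0.12 with shCENPA2 (adjusted p = 0.000255 and 1.08e-05 from limma), so that 38.5% and 23.8% of the control level were left. NDC80, the subunit whose head touches the microtubule, measured 3.58 and 3.72 with shNT, 2.26 and 2.47 with shCENPA1, and 1.95 and 1.97 with shCENPA2, again without overlap. Its change was -1.28 ± 0.12 and -1.69 ± 0.12 (adjusted p = 0.000287 and 2.34e-05 from limma).

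SPC24 and SPC25 form the end of the rod that docks on the inner parts of the kinetochore. SPC24 measured 2.38 and 2.19 log2 RPKM with shNT, 0.89 and 1.20 with shCENPA1, and 0.73 and 0.33 with shCENPA2. All 4 knockdown libraries lay below both controls, and the 2 hairpins did not overlap each other. The change was -1.24 ± 0.18 with shCENPA1 and -1.75 ± 0.18 with shCENPA2 (adjusted p = 0.00344 and 0.000217 from limma). SPC25 measured 1.41 and 1.12 with shNT, -0.12 and 0.31 with shCENPA1, and -0.26 and -0.06 with shCENPA2. Here the libraries of the 2 hairpins overlapped each other and none overlapped shNT. The change was -1.17 ± 0.20 and -1.42 ± 0.20 (adjusted p = 0.00857 and 0.00137 from limma). The shCENPA1 calls of these 2 genes did not hold in every setting. With 1 added to RPKM the change with shCENPA1 was -0.94 for SPC24 and -0.71 for SPC25, short of the 2-fold mark. Without shCENPA1 library 1 the change was -1.08 for SPC24 (adjusted p = 0.0503 from limma) and -0.95 for SPC25 (adjusted p = 0.0667), and without shNT library 1 it was -1.02 for SPC25 (adjusted p = 0.068). A group with a library left out has 1 library, here and in the same check of other genes, and its p assumes that this library varies as the other groups do.

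KNL1, the scaffold whose repeats are phosphorylated by the TTK kinase and then hold the BUB checkpoint proteins, measured 2.46 and 2.62 log2 RPKM with shNT, 1.35 and 0.94 with shCENPA1, and 0.78 and 0.99 with shCENPA2. The knockdown libraries overlapped each other and lay more than 1 log2 unit below both controls. The change was -1.40 ± 0.17 with shCENPA1 and -1.66 ± 0.17 with shCENPA2 (adjusted p = 0.00115 and 0.000186 from limma), which left 38.0% and 31.7% of the control level. ZWINT, the KNL1 partner that links it to the corona, measured 5.73 and 5.71 with shNT, 4.85 and 4.95 with shCENPA1, and 4.68 and 4.62 with shCENPA2. Libraries of a group lay close together and the groups did not overlap. The change, -0.82 ± 0.08 and -1.07 ± 0.08 (adjusted p = 0.000535 and 4.47e-05 from limma), was past the 2-fold mark with shCENPA2 and short of it with shCENPA1.

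The MIS12 complex, the hub between the inner kinetochore and these assemblies, was uneven. DSN1, the subunit that Aurora B phosphorylates, measured 3.81 and 3.89 log2 RPKM with shNT, 2.79 and 3.22 with shCENPA1, and 2.85 and 2.97 with shCENPA2. Every knockdown library was below both controls, with the 2 shCENPA1 libraries wide apart. The change was -0.84 ± 0.14 and -0.94 ± 0.14 (adjusted p = 0.00651 and 0.00166 from limma). With shCENPA1 it was -1.06, past the 2-fold mark, without library 2 of that group and -0.62 without library 1. MIS12 measured 3.76 and 3.84 with shNT, 3.51 and 3.50 with shCENPA1, and 3.39 and 3.58 with shCENPA2. The knockdown libraries were lower than both controls by a small margin, and the change of -0.30 ± 0.10 and -0.32 ± 0.10 did not pass (adjusted p = 0.113 and 0.0555 from limma). The latter was -0.41 without shCENPA2 library 2 and -0.22 without shCENPA2 library 1.

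NSL1 and PMF1, the remaining subunits of the hub, did not pass in either comparison. NSL1 measured 4.00 and 3.99 log2 RPKM with shNT, 3.94 and 4.01 with shCENPA1, and 3.75 and 4.01 with shCENPA2, and the groups overlapped. Its change was -0.02 with shCENPA1 (95% interval -0.26 to 0.22) and -0.11 with shCENPA2 (-0.35 to 0.13). PMF1 measured 3.23 and 3.41 with shNT, 3.33 and 3.48 with shCENPA1, and 3.43 and 3.20 with shCENPA2, with overlap between all groups. Its change was 0.08 (-0.19 to 0.35) and -0.01 (-0.28 to 0.26), and changes of 2-fold lie outside all of these intervals. PMF1 lies whole within the readthrough gene PMF1-BGLAP on the same strand, so its reads and those of the readthrough cannot be told apart.

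Within each library the mean log2 RPKM of the 4 NDC80 complex genes minus that of the 4 MIS12 complex genes was -0.91 and -1.07 with shNT, -2.05 and -1.91 with shCENPA1, and -2.30 and -2.46 with shCENPA2. Taken back from the log2 scale, the group means of these differences are ratios of geometric mean RPKM. The NDC80 complex genes stood at 0.504 of the MIS12 complex genes in control cells, at 0.253 with shCENPA1 and at 0.192 with shCENPA2. These differences follow from the changes given above and were not tested separately.

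Inside the complexes the proportions moved by different amounts. SPC24 exceeded SPC25 by 0.97 and 1.07 on the log2 RPKM scale with shNT, by 1.00 and 0.89 with shCENPA1, and by 0.99 and 0.39 with shCENPA2. The last library, shCENPA2 library 2, stood apart from the other 5. NDC80 minus NUF2 was -0.22 and -0.12 with shNT, -0.06 and -0.09 with shCENPA1, and 0.13 and 0.29 with shCENPA2. NUF2 thus had the higher value in 4 libraries and NDC80 in the 2 shCENPA2 libraries. The 2 lanes of a library differed by up to 0.10 in each of these genes, and their order was not tested. DSN1 against the mean of MIS12, NSL1 and PMF1 went from 0.14 in both shNT libraries to -0.80 and -0.44 with shCENPA1 and to -0.67 and -0.63 with shCENPA2. MIS12, NSL1 and PMF1 are the subunits of that complex that did not pass. This difference therefore restates the changes given above and was not tested separately. KNL1 minus ZWINT was -3.27 and -3.09 with shNT, and between -4.01 and -3.51 in the 4 knockdown libraries.

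**Figure D3:**
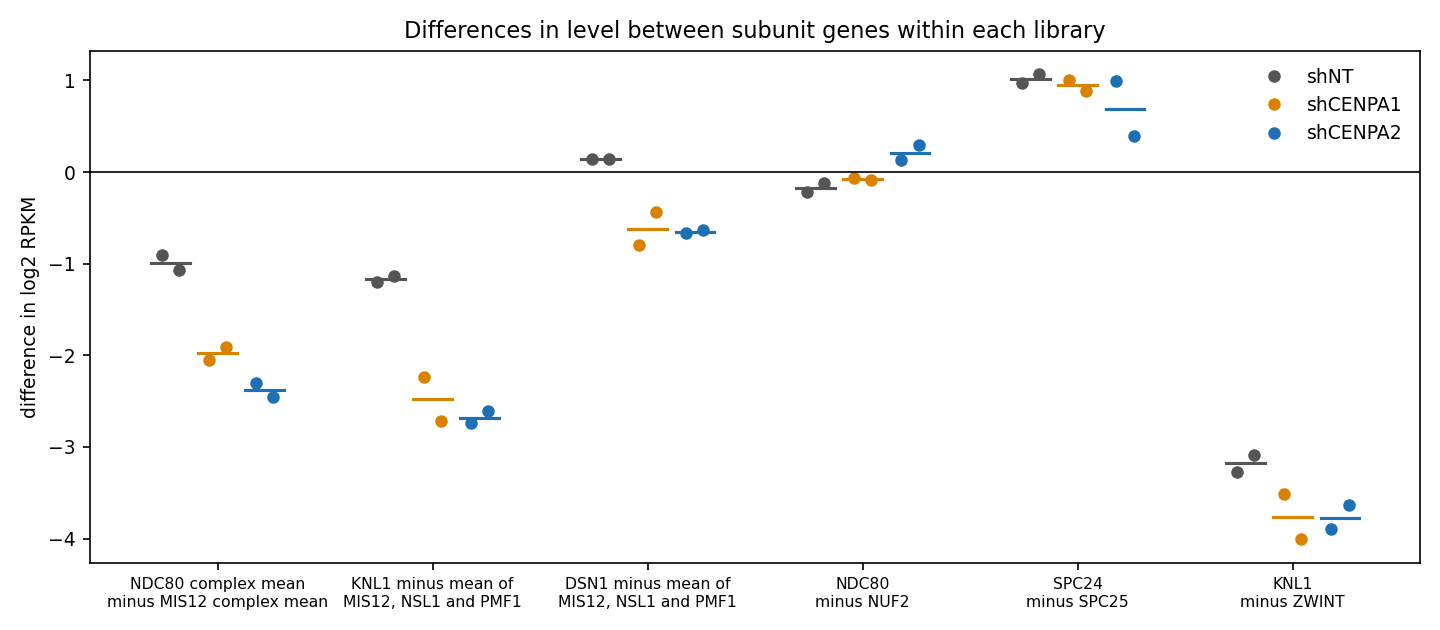
Differences in log2 RPKM between subunit genes within each library (vertical axis), for 6 pairs of genes or gene means (horizontal axis); points are libraries and short lines group means. The NDC80 complex lies at -0.91 and -1.07 relative to the MIS12 complex in the shNT libraries and between -2.46 and -1.91 in the knockdown libraries, while SPC24 minus SPC25 stays between 0.89 and 1.07 in 5 of 6 libraries.

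Between the 2 hairpins, CENPA stood at -0.98 ± 0.16 in shCENPA2 against shCENPA1 on the log2 scale (adjusted p = 0.0209 from limma). None of the 10 genes was called past 2-fold in this comparison by limma or by limma-voom. At an unadjusted p under 0.05 from limma, 4 of the 10 were lower, and the share of all genes under that rule was not counted. NUF2 was the only one with an adjusted p under 0.05, at -0.69 ± 0.12 (95% interval -0.96 to -0.42, adjusted p = 0.0274), 61.9% of its shCENPA1 level and lower in both shCENPA2 libraries than in both shCENPA1 libraries. Of all genes, 0.554% were called lower in this comparison and 1.03% were lower at an adjusted p under 0.05 and any size of change. The NUF2 difference no longer had an adjusted p under 0.05 without library 1 or 2 of shCENPA1 (-0.81 and -0.57, adjusted p = 0.0621 and 0.218 from limma), without library 2 of shCENPA2 (-0.62, adjusted p = 0.112) and without the trend in the limma variance (adjusted p = 0.0827). SPC24 differed by -0.52 (-0.93 to -0.10), NDC80 by -0.41 (-0.67 to -0.14) and ZWINT by -0.25 (-0.44 to -0.06), all with an adjusted p of 0.157 or more from limma. For KNL1 the interval was -0.64 to 0.12, for SPC25 -0.71 to 0.21, and for MIS12, DSN1, NSL1 and PMF1 the intervals lay within -0.41 and 0.22.

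Divergent neighbours gave a comparison from the same stretch of DNA. The METTL4 gene starts 52 bp from NDC80 on the other strand and measured 2.16 and 2.33 log2 RPKM with shNT, 2.19 and 1.97 with shCENPA1, and 1.95 and 2.05 with shCENPA2. Its change was -0.16 (95% interval -0.46 to 0.13) and -0.24 (-0.54 to 0.05), with adjusted p = 0.513 and 0.242 from limma, and neither interval overlapped that of NDC80, -1.55 to -1.02 and -1.95 to -1.43. TATDN3, whose start is 117 bp from that of NSL1, had a log2 fold change of 0.14 in each comparison (adjusted p = 0.407 and 0.313 from limma). DERL2, 388 bp from MIS12, was at -0.05 and -0.14 (adjusted p = 0.818 and 0.441 from limma). DERL2 also overlaps MIS12 on the other strand over 527 bp, RGS5 and NOSTRIN overlap NUF2 and SPC25 on the other strand, and the strand setting of the read counting is not given in the sources used here.

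The genes whose library values, centred on their mean, lay nearest to the mean profile of the NDC80 complex were searched among 12040 other genes, by the root mean square difference over the 6 libraries. They were BIRC5 (0.054 on the log2 scale), which encodes survivin of the chromosomal passenger complex, CKS2 (0.058), a partner of cyclin-dependent kinases, TRGC1 (0.067), HJURP (0.070), the chaperone that loads CENPA, and CDCA3 (0.076). NDC80 itself was 0.077 from that mean, KNL1 0.247, and PMF1 0.747. Nearest to KNL1 were ESCO2 (0.042), a cohesin acetyltransferase, SSX9 (0.063), CKAP2L (0.067), a spindle protein, E2F7 (0.087), a repressor of the E2F family, and SGO2 (0.088), which protects centromeric cohesion. TRGC1 and SSX9 belong to families of near-identical copies, which the counting may have split, and are uncertain. The 6 libraries share their groups, so this likeness describes the groups and no p is attached to it.

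Many of the partners that work on the KMN network were lower as well. Over all genes tested, 1.83% were called lower with shCENPA1 and 4.45% with shCENPA2, and 4.45% and 10.5% were lower at an adjusted p under 0.05. Of 15 genes of the checkpoint and the corona, 7 were called lower with shCENPA1 and 8 with shCENPA2, with a list median of -0.90 and -1.25 (log2), and 11 and 11 were lower at an adjusted p under 0.05. By the rule for naming, these included CENPF, a corona protein (-1.40 and -1.74, adjusted p = 0.000191 and 1.76e-05 from limma), and BUB1B, which encodes the checkpoint protein BUBR1 that binds the KNL1-bound BUB1 (-1.36 and -1.56, adjusted p = 0.000287 and 4.47e-05). The smallest changes were those of ZW10, of the complex that ZWINT helps to bring in (-0.04 and 0.00, adjusted p = 0.897 and 0.996), and NDEL1, a dynein regulator (0.06 and -0.07, adjusted p = 0.777 and 0.649). Of 16 microtubule couplers and regulators, 7 and 9 were called lower, with a median of -0.93 and -1.11, and 11 and 11 at any size of change. SKA3, which helps NDC80 to hold on to shortening microtubules, changed by -1.34 and -1.78, and AURKB, the kinase that loosens wrong attachments by phosphorylating NDC80 and DSN1, by -1.24 and -1.75 (adjusted p between 1.75e-05 and 0.000545 from limma). MAPRE1, a microtubule plus-end protein (-0.02 and 0.08, adjusted p = 0.929 and 0.589), and SUGT1, a cochaperone used in assembling MIS12 (-0.07 and -0.14, adjusted p = 0.799 and 0.506), did not pass.

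Of 16 genes of the inner kinetochore, on which the MIS12 and NDC80 complexes sit, 4 were called lower with shCENPA1 and 8 with shCENPA2, and 11 and 12 were lower at any size of change (median -0.80 and -0.92). The shares over all genes tested were 1.83% and 4.45% for calls and 4.45% and 10.5% at any size of change. CENPI (-1.51 and -1.53, adjusted p = 0.00191 and 0.000798 from limma) and CENPU (-1.42 and -1.81, adjusted p = 9.21e-05 and 6.3e-06) fell most by the rule for naming. CENPC, the protein that ties CENPA nucleosomes to the MIS12 complex, was at -0.10 and 0.05 (adjusted p = 0.6 and 0.747), and CENPX, a histone-fold protein, by -0.04 and -0.16 (adjusted p = 0.855 and 0.346). None of the genes in these 3 lists was higher, by limma, by limma-voom or at an unadjusted p under 0.05.

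Genes that mark the phases of the cell cycle moved with the same groups. Of 15 G2/M genes, 14 were called lower with shCENPA1 and 15 with shCENPA2 (median -1.28 and -1.63). Of all genes tested, 1.83% and 4.45% were called lower. The lists were chosen with earlier results of these data known, so the counts only describe them. The summed level of the G2/M genes was 514.0 to 524.0 RPKM in the shNT libraries, 217.0 to 226.0 with shCENPA1 and 164.0 to 171.0 with shCENPA2. HMMR, a spindle protein, changed by -1.45 and -1.80 (adjusted p = 7.65e-05 and 6.3e-06 from limma), MKI67, the Ki-67 gene, by -1.40 and -1.66, CCNB1, the mitotic cyclin B1, by -1.11 and -1.40, and AURKA, a spindle pole kinase, by -0.89 and -1.02. Of 15 G1/S genes, 6 and 11 were called lower (median -0.97 and -1.25), with a summed level of 507.0 to 509.0, 281.0 to 307.0 and 235.0 to 243.0 RPKM. RRM2 (-1.25 and -1.71) and CDC6 (-1.17 and -1.62), both of DNA replication, fell most by the rule for naming, while CCNE1, cyclin E1, was at -0.13 and 0.17 (adjusted p = 0.674 and 0.505) and CDT1, the replication licensing factor, at -0.57 and -0.62 (adjusted p = 0.0528 and 0.018 from limma). The summed level of the 10 KMN genes was 145.0 to 148.0 RPKM with shNT, 87.7 to 95.7 with shCENPA1 and 79.2 to 81.0 with shCENPA2. Of the listed genes, 5 stand in more than 1 list, and the part of the cell cycle genes in the changes of the KMN genes was not tested.

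**Figure D4:**
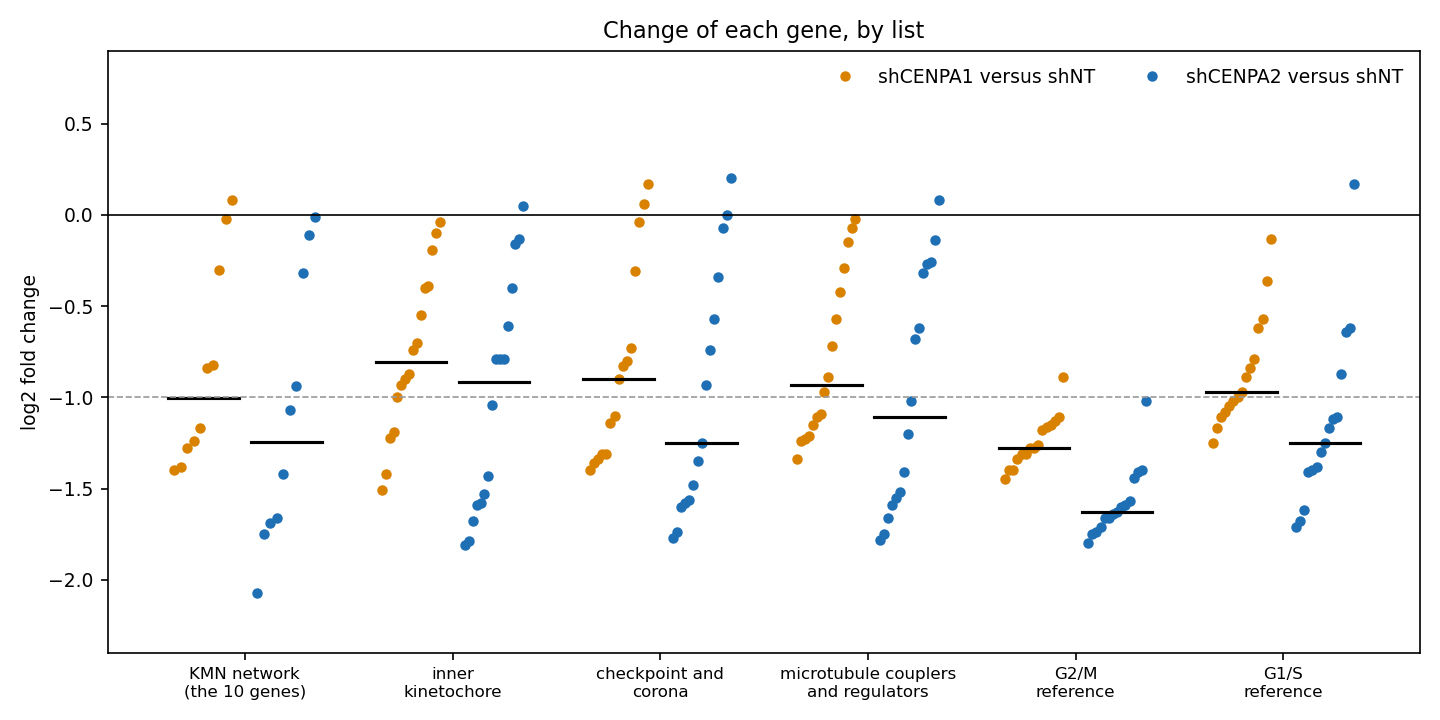
Log2 fold change against shNT (vertical axis) of each gene in the KMN network and in 5 lists (horizontal axis), for shCENPA1 and shCENPA2; points are genes, sorted by value within a list, and black lines list medians. The G2/M genes sit together between -1.80 and -0.89, while the KMN genes spread from -2.07 to 0.08 and the kinetochore lists also reach 0.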

How the data were processed

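RNA of 22Rv1 cells with shNT, shCENPA1 or shCENPA2 was sequenced paired-end and stranded, in 2 libraries per hairpin and 2 lanes per library. For each run, the values the authors deposited are log2 RPKM of 14828 genes. The authors trimmed with TrimGalore, aligned with STAR to hg38, counted with HTSeq and scaled with edgeR, with no versions given. No column of values was left unused.

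Lanes were averaged, and limma 3.58.1 (R 4.3.3, trend in the variance) was fitted to the 6 libraries over the 14624 genes whose mean log2 RPKM was at least -3, with Benjamini-Hochberg adjustment over all of them. No constant was added, and the one inside the deposited values draws the fold changes of weak genes towards 0. The steps between values gave back whole reads for 14828 of 14828 genes (within 0.001 of a read), hence the depth and the limma-voom alternative. Other alternatives changed the lanes, filter, added constant, centring, block and libraries used. The recovery and the limma fit were tested on simulated data, where a few genes were not recovered exactly and some of the changed genes were not called. The 10 genes and all lists were chosen with earlier results of these data known. Of the table's symbols 88.1% matched GENCODE 44. Named genes are the 10, CENPA, divergent neighbours within 1000 bp, the 5 nearest profiles to the NDC80 complex and to KNL1 (mean log2 RPKM of at least 0) and, of each list, the 2 that fell most by the smaller of both changes and the 2 that changed least.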

Additional observations from a re-analysis of the deposited data

Results flagged for a closer look

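NUF2 differed between the 2 hairpins against CENPA. It was lower with shCENPA2 than with shCENPA1 by a log2 fold change of -0.69 (adjusted p = 0.0274 from limma, the test of the difference itself), with 1.82 and 1.68 log2 RPKM in the shCENPA2 libraries and 2.32 and 2.56 in the shCENPA1 libraries. CENPA was lower with shCENPA2 as well, by -0.98, and the part of this in the NUF2 difference was not tested. The adjusted p was 0.0621, 0.218 and 0.112 (limma) without shCENPA1 library 1, shCENPA1 library 2 and shCENPA2 library 2. No test for outlying libraries was made in groups of 2.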

How the results depend on the processing

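The count of genes called lower with shCENPA1 was 5, and it was 3 with 1 added to RPKM and from 3 to 6 when each library was left out in turn (3 without shCENPA1 library 1, where SPC24 and SPC25 were lost). With shCENPA2 it was 6, and 5 with 1 added to RPKM. Between the hairpins, the 1 gene with an adjusted p under 0.05 became 4 with each lane taken as a replicate and 0 in limma without the trend, and ranged from 0 to 1 when libraries were left out. Of 570 alternative values of single genes, 542 kept their direction and their side of an adjusted p of 0.05. The 2-fold mark was not part of this count, so a value among the 542 could still lose or gain a call. With 1 added to RPKM, SPC25 with shCENPA2 was such a value, at -0.84. In some alternatives the fold change could not differ from the main fit, so its direction was fixed in advance. These were each lane as a replicate, the filter settings, the replicate block and limma without the trend. Fits to only the groups compared, or without a library of the group not compared, were also of this kind. For such values the 542 speak only of the adjusted p. The sign turned only in changes near 0. With shCENPA1, NSL1 was 0.00 after centring libraries on their median and -0.06 to 0.01 with a library left out, and PMF1 -0.01 to 0.17. With shCENPA2, PMF1 was 0.02 in lane 8 only, 0.01 after centring or quantile normalization, 0.02 by voom and -0.12 to 0.11 with a library left out, and NSL1 -0.24 to 0.02. Between the hairpins, MIS12 was 0.02 by voom and -0.11 to 0.08 with a library left out, DSN1 -0.31 to 0.12, NSL1 -0.22 to 0.04 and PMF1 -0.20 to 0.02. Their causes were not tested.

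Deviations of same-numbered libraries from the group means correlated at -0.06, -0.1 and -0.15 between groups. With 2 libraries a group, this cannot show whether same-numbered libraries were prepared together. The main fit used no pairing. With the library number as a replicate block, 5 and 6 genes were called, 7 and 7 had an adjusted p under 0.05, and between the hairpins the counts were 0 and 1. Over all genes, those with an adjusted p under 0.05 numbered 1044 with shCENPA1, 5405 with each lane as a replicate and 397 without shCENPA1 library 2. The number of libraries limits the precision, and SPC25, at 127 to 527 reads, rests on the fewest reads.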
